A study of Homo sapiens with 6 samples.

Results

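Transcripts of 40 genes for tubulins, microtubule proteins and motors were followed in OCI-AML2 cells, a line derived from a human acute myeloid leukaemia. The genes were taken by symbol from a deposited table of 55765 genes, and all 40 were found there. Of these, 36 passed the filter on low counts, as did 13053 genes in all. The cells were treated for 48 h with 100 nM MRT199665, which the labels call an inhibitor of MARK kinases, or with vehicle alone, and each group held 3 libraries. Both groups came from the same line, grown per the labels as clones of single cells, so the comparison describes this line only. Nothing in the labels says that the libraries are separate cultures, so the p-values rest on a spread between libraries that may be technical only. The libraries were made from the 3′ ends of messenger RNAs.

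Microtubules are polymers of alpha- and beta-tubulin dimers. They are nucleated by gamma-tubulin complexes, stabilised or severed by associated proteins, and used as tracks by kinesin and dynein motors. MARK kinases phosphorylate the microtubule-binding repeats of MAP4 and tau (MAPT), which releases these proteins from the lattice. Cells are also known to adjust tubulin messenger RNA to the pool of unassembled dimers, by degrading it when that pool grows. The comparison sets the transcripts of these genes under the inhibitor against those under vehicle.

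The libraries held between 5871097 counts (MRT199665 replicate 2) and 14308650 counts (MRT199665 replicate 3), so that the limit a count of 0 allows, 3 counts, stood between 0.213 and 0.507 CPM per library for counting error only. CPM here uses library totals scaled by TMM and is not divided by transcript length, since the reads come from 3′ ends. MRT199665 replicate 2 and vehicle replicate 2 lay at the ends of a first principal component that held 46.8% of the variance, at 48.4 and -36.8. Vehicle replicate 3 lay at -18.0 on it, and vehicle replicate 1 lay furthest out on the second component, at 35.3. Values without the replicate 2 libraries are given beside several results. Myeloid markers were present, with PTPRC (CD45) between 369 and 427 CPM with MRT199665 and between 360 and 391 CPM with vehicle. Of 8 tested myeloid markers, CD33, MPO, CSF3R and LYZ had every treated library above every vehicle library (background 11.4%), none was called, and MPO averaged 89.7 ± 6.44 CPM in the treated and 65.1 ± 5.07 CPM in the vehicle libraries (SD, n = 3 each). The summed level of the 10 listed was 1260 to 1417 CPM with MRT199665 and 1010 to 1303 CPM with vehicle, and its part in the results was not tested. The markers CEBPA and CD68 had a count of 0 in all 6 libraries. The annotation and strand setting of the counting are not given, so these counts do not show that the transcripts were absent. Of 10 neuronal markers only NCAM1 and RBFOX3 passed the filter, and SNAP25 and NEFL had a count of 0 throughout. In RNA from whole cultures, fewer cells with a transcript and less of it per cell cannot be told apart.

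None of the 36 tested microtubule genes passed the test for a difference between MRT199665 and vehicle, while 163 of all 13053 genes did (1.25%, of which 0.85% higher and 0.398% lower, edgeR quasi-likelihood test, adjusted p under 0.05). DESeq2 and limma-voom called none of the 36 either, though TUBB lay close to the threshold with DESeq2 (adjusted p = 0.0542). At an unadjusted p under 0.05 there were 4 of 36 genes with edgeR, all lower, against 14.7% of all genes (7.11% lower). With DESeq2 there were 6 of the 36, against 11.4% of the same genes, and with limma-voom 4, against 14.7%. The median log2 fold change over the 36 was 0.0035, against 0.0059 over all tested genes, with 18 genes positive and 18 negative. For 33 of the 36 the estimate was smaller than 1.5-fold, as for 89.7% of all genes. For 32 of the 36 the 95% interval of the fold change lay within 2-fold in either direction, as for 74.9% of all genes. These intervals rest on the same spread between libraries, which may be technical only, and each covers a single gene. Within that limit they bound how large a change could have been missed, and they do not show that the levels were equal. In 8 of the 36 genes the groups' libraries did not overlap, 5 of them lower and 3 higher with MRT199665. This share was the same as the background of 22.2% over all genes (10.8% lower and 11.4% higher). Levels by library are shown first and fold changes after them.

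**Figure D1:**
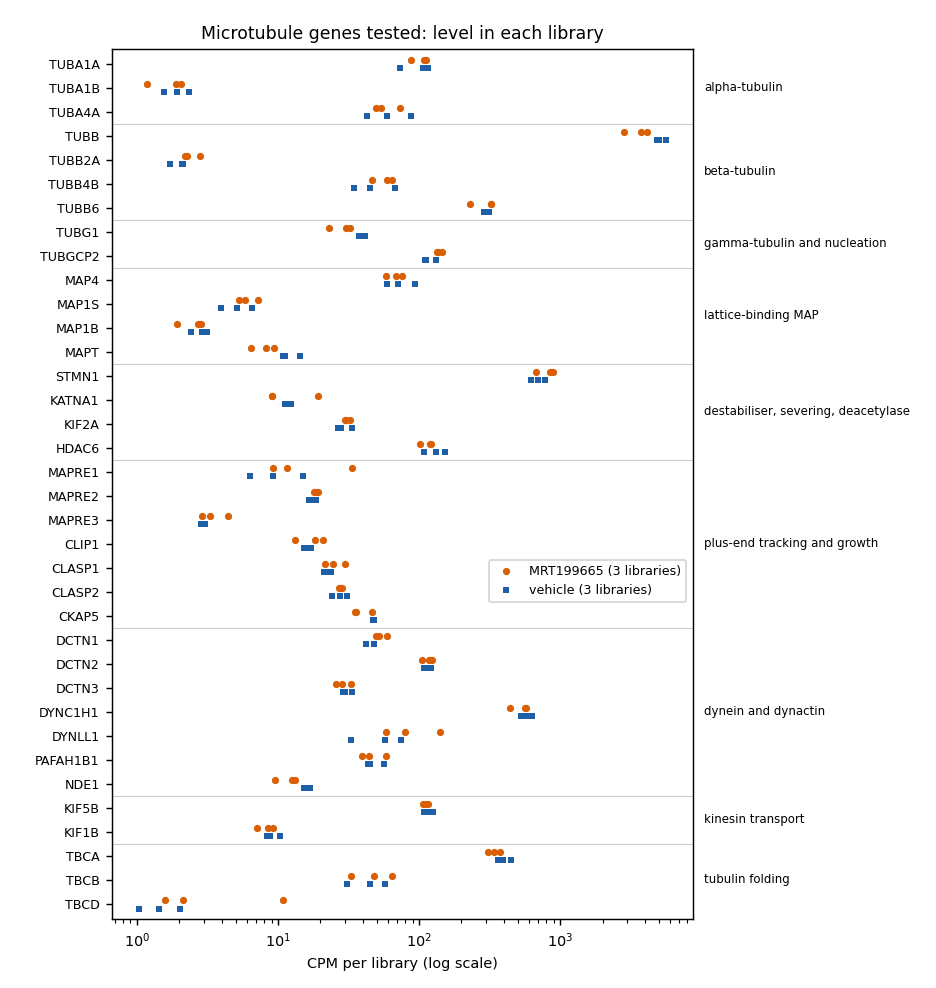
CPM in each library (log scale) of the 36 tested genes, ordered by role, with 3 MRT199665 libraries as circles above 3 vehicle libraries as squares. TUBB stood highest, between 2834 and 5662 CPM, and most rows show circles and squares interleaved.

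**Figure D2:**
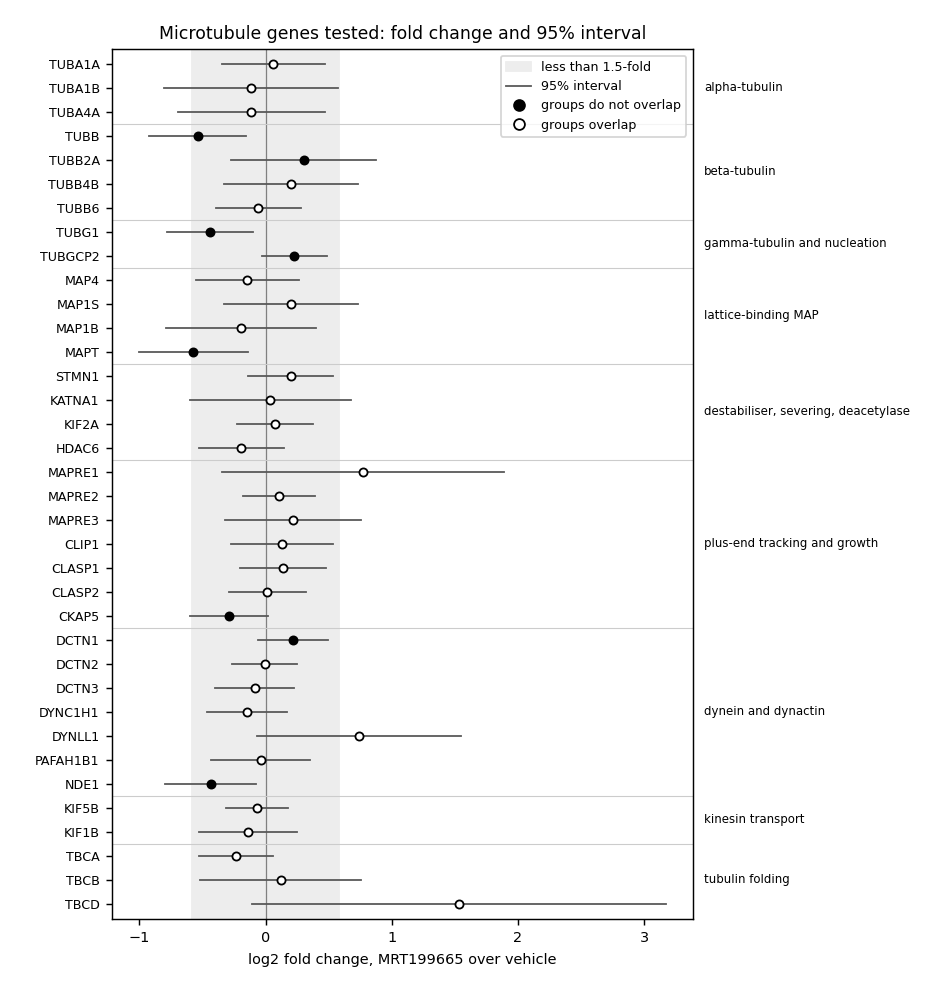
Log2 fold change of MRT199665 over vehicle for the same genes, with 95% intervals from the edgeR fit and a grey band for changes under 1.5-fold. Filled points mark the 8 genes whose groups did not overlap, and the estimates of MAPRE1, DYNLL1 and TBCD lie to the right of the band with the widest intervals.

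TUBB, the main beta-tubulin of dividing cells, was the most abundant of the 40 genes and the tested gene with the lowest p. It stood at 4122, 2834 and 3754 CPM in MRT199665 replicates 1, 2 and 3, against 5016, 5662 and 4887 CPM in vehicle replicates 1, 2 and 3. All 3 treated libraries lay below all 3 vehicle libraries, and the lowest was MRT199665 replicate 2. TUBB took 0.406%, 0.286% and 0.370% of all counts with MRT199665, against 0.505%, 0.550% and 0.504% with vehicle. By level it ranked 23, 43 and 26 among all genes in the treated libraries and 17, 15 and 20 in the vehicle libraries. The fitted level was 1.45-fold lower with MRT199665, a log2 fold change of -0.54 ± 0.17 (SE, 95% interval -0.92 to -0.16), which did not pass the test (edgeR adjusted p = 0.181). Without MRT199665 replicate 2 the log2 fold change was -0.40, and without MRT199665 replicate 2 and vehicle replicate 2 it was -0.33. These libraries held the lowest treated and the highest vehicle value of TUBB, so both estimates are smaller in size by construction. Over the 15 alternatives its adjusted p lay between 0.0336, without a low-count filter, and 0.554. It was 0.0542 with DESeq2 and 0.155 with limma-voom.

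The other tested beta-tubulins had log2 fold changes between -0.06 and 0.30. TUBB6 had 323, 230 and 322 CPM with MRT199665, against 312, 290 and 310 CPM with vehicle, and its groups overlapped (log2 fold change -0.06 ± 0.15, SE). Without MRT199665 replicate 2 its log2 fold change was 0.09. TUBB4B averaged 56.7 ± 9.26 CPM in the treated and 49.1 ± 16.5 CPM in the vehicle libraries (SD, n = 3 each). TUBB2A, at 2.42 ± 0.326 CPM in the treated and 1.98 ± 0.233 CPM in the vehicle libraries (SD, n = 3 each), was among the 3 genes with every treated library above every vehicle library. The neuronal isotype TUBB3 had 4 counts over the treated libraries and 1 over the vehicle libraries, and TUBB2B had a count of 0 in all 6. Neither passed the filter.

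Among alpha-tubulins, TUBA1A averaged 103 ± 13.1 CPM in the treated and 98.9 ± 22.2 CPM in the vehicle libraries, and TUBA4A 58.8 ± 12.6 CPM in the treated and 63.4 ± 22.9 CPM in the vehicle libraries (SD, n = 3 each). Both sets of libraries overlapped. The log2 fold change of TUBA4A was -0.12 ± 0.26 (SE), and -0.52 without the replicate 2 library of each group. TUBA1B, which is among the abundant alpha-tubulins of dividing cells, stood at only 1.71 ± 0.463 CPM in the treated and 1.94 ± 0.398 CPM in the vehicle libraries (SD, n = 3 each). TUBA1C had 2 counts over the treated libraries and 1 over the vehicle libraries, below the filter. Summed over the 4 genes, alpha-tubulin transcripts stood at 164, 183 and 144 CPM with MRT199665, against 164, 160 and 168 CPM with vehicle. They made up between 3.36% and 5.53% of the summed tubulin CPM with MRT199665 and between 2.61% and 3.11% with vehicle, shares that depend on the very low counts of TUBA1B and TUBA1C.

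How far reads of each gene could be told from those of other genes was examined in reference transcripts. In GENCODE 29, 31 of the 40 genes shared no stretch of 50 bases in their last 500 bases with a transcript of another gene. For TUBB3 98.9% of such stretches were shared, for TUBB2A 56.1%, for TUBA1B 49.9%, for DCTN1 42.6%, for TUBA1A 29.05% and for TUBB4B 22.8%. Of the last 500 bases, 495 of TUBB3 lay under exons of AC092143.1 on the same strand, and 244 of DCTN1 under those of AC006030.1. For TUBG1 14.4% were shared, with its paralogue TUBG2, and for TUBB, TUBB6 and TUBA1C none were. The end of TUBA1B also lay wholly under an exon of AC011603.2 on the opposite strand, and that of TUBA4A under exons of STK16. The values of these genes are uncertain, since the strand setting and the treatment of shared reads are not given in the sources used here. TUBA1C had almost no counts although its end was not shared, and the cause was not tested.

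Summed over the 10 alpha- and beta-tubulin genes, the treated libraries held 4658, 3315 and 4281 CPM, against 5562, 6149 and 5413 CPM in the vehicle libraries. The groups did not overlap, and the mean was 0.716 of the vehicle mean, a difference of -1623 CPM. Without MRT199665 replicate 2 the difference was -1236 CPM (0.783 of the vehicle mean), and without the replicate 2 library of each group it was -1037 CPM (0.812). These libraries held the lowest treated and the highest vehicle sum, so both differences are smaller in size by construction. TUBB made up between 85.5% and 88.5% of the sum with MRT199665 and between 90.2% and 92.1% with vehicle, and whether TUBA1B and TUBA1C were fully counted was not tested. A sum without TUBB, chosen after its value was seen, stood at 515 ± 30.0 CPM in the treated and 519 ± 29.7 CPM in the vehicle libraries (SD, n = 3 each).

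Besides TUBB, 4 genes had every treated library below every vehicle library. TUBG1, the gamma-tubulin of the nucleating complex, stood at 30.3, 23.0 and 32.6 CPM with MRT199665, against 37.7, 37.9 and 41.5 CPM with vehicle. MAPT, which encodes tau, stood at 9.36, 6.42 and 8.29 CPM with MRT199665, against 10.8, 14.3 and 11.2 CPM with vehicle. NDE1, a dynein regulator of the centrosome and of mitosis, stood at 13.1, 9.47 and 12.5 CPM with MRT199665, against 16.8, 15.9 and 15.4 CPM with vehicle. In these genes, as in TUBB, the lowest value of all 6 was that of MRT199665 replicate 2. CKAP5, the microtubule polymerase also called ch-TOG, stood at 46.2, 35.2 and 35.9 CPM with MRT199665, against 48.2, 48.2 and 47.3 CPM with vehicle, so that MRT199665 replicate 1 came close to the vehicle range. The log2 fold changes were -0.44 ± 0.15 for TUBG1, -0.57 ± 0.19 for MAPT, -0.44 ± 0.16 for NDE1 and -0.29 ± 0.14 for CKAP5 (SE). None passed the test (edgeR adjusted p = 0.221, 0.208, 0.244 and 0.370 in that order). Over the alternatives all 4 log2 fold changes were negative, between -0.70 and -0.22, and none of the 4 was called. Without MRT199665 replicate 2 and vehicle replicate 2 they were -0.34 (TUBG1), -0.32 (MAPT), -0.33 (NDE1) and -0.22 (CKAP5). Leaving out MRT199665 replicate 2, the lowest treated library in all 4 genes, raises the treated mean by construction.

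**Figure D3:**
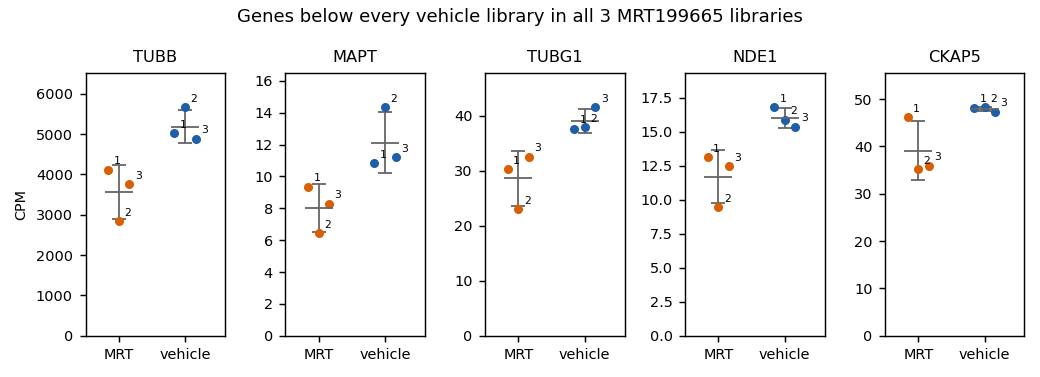
CPM by library of the 5 genes with every MRT199665 library (left in each panel) below every vehicle library, with replicate numbers beside the points and bars for mean and SD. TUBB stood between 2834 and 4122 CPM with MRT199665 and between 4887 and 5662 CPM with vehicle, and the other panels have their own scales.

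The CCAAT box and the CHR element are known from promoters of cell cycle genes. The promoters of TUBB, TUBG1, CKAP5 and NDE1 are shown, chosen from these same data because every treated library lay below every vehicle library. They are the 250 bases before the start that RefSeq lists first for each gene (GRCh38.p14), with matches on either strand in capitals, and 39 of the 40 genes, all but MAPT, had an entry. TUBB lies at chr6:30720102-30720351 (plus strand), TUBG1 at chr17:42609433-42609682 (plus), CKAP5 at chr11:46846281-46846530 (minus) and NDE1 at chr16:15643132-15643381 (plus).
TUBB: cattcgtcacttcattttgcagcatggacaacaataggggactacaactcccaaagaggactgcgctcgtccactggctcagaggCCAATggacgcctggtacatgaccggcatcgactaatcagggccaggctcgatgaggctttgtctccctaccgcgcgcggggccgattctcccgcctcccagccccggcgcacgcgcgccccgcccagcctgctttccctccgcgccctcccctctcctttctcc
TUBG1: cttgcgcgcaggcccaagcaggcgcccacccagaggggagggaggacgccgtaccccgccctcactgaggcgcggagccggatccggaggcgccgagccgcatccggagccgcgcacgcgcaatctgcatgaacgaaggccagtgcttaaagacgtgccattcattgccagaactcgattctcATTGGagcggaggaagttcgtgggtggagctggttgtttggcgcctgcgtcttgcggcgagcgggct
CKAP5: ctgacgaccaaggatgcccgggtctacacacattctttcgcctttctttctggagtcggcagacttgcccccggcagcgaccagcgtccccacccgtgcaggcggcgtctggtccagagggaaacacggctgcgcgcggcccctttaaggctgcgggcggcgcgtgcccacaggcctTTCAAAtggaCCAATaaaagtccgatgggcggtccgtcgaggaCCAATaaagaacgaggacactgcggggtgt
NDE1: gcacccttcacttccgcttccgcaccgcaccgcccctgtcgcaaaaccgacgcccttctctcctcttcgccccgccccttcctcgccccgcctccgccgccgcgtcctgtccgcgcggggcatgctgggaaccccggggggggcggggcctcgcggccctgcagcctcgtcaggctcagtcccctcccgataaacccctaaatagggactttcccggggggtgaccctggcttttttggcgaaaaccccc
The search covered the box CCAAT that NF-Y binds, the CHR element with the letters TTTGAA, an E2F site with the letters GGCGGGAA and the MEF2 consensus by its name, on both strands, and none of these overlapped in the windows shown. TUBB held CCAAT with its first base 165 bases before the start, and TUBG1 held it on the reverse strand 67 bases before the start. CKAP5 held CCAAT 63 and 30 bases before the start, and a CHR element on the reverse strand at 73 bases. NDE1 held none of the 4. CCAAT was present in 15 of the 39 windows, against 33% of 27305 windows of all genes, the CHR element in 4 of 39, against 13.6%, the E2F site in 1 of 39, against 2.77%, and the MEF2 consensus in 0 of 39, against 2.9%. In 12 proliferation genes with an entry, CCAAT was present in 12 and the CHR element in 7. Genes of the set whose groups overlapped held matches too: TUBB4B had 3 CCAAT and 1 CHR element, and TUBA1A and MAP4 had 2 CCAAT each. Others, such as TUBA1B and TUBB6, held none of the 4. A match describes letters only, not binding, and a link between matches and transcript levels was not tested.

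Genes of proliferation also had mostly lower values in the treated libraries. Of 16 such genes, all tested, 12 had every treated library below every vehicle library, against 10.8% of all genes. The groups overlapped for MKI67, TOP2A, CCNB2 and BIRC5. MKI67 averaged 194 ± 8.46 CPM in the treated and 196 ± 4.78 CPM in the vehicle libraries (SD, n = 3 each). None passed the test with edgeR, 10 had an unadjusted p under 0.05, all lower, against 7.11% of all genes, and their median log2 fold change was -0.37. DESeq2 called HMMR and PTTG1 lower, as did edgeR without a low-count filter, and limma-voom called none. Their summed level was between 2751 and 2976 CPM with MRT199665 and between 3117 and 3505 CPM with vehicle. TOP2A alone held 1692 to 1865 CPM of it with MRT199665 and 1813 to 2098 CPM with vehicle. The sum was lowest in MRT199665 replicate 2, as were MKI67, TOP2A, AURKB, TPX2 and PTTG1 among treated libraries. CCNB1, CCNB2, PLK1, BUB1 and CDK1 were highest there among treated libraries. The part of the lower proliferation values in those of TUBB, TUBG1, MAPT, NDE1 and CKAP5 was not tested.

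The associated proteins that bind along the lattice, MAP4 included, had no called gene. MAP4, the main such protein outside neurons and a MARK substrate, stood at 58.5, 75.6 and 69.2 CPM with MRT199665, against 94.0, 59.5 and 71.0 CPM with vehicle. The groups overlapped, and the log2 fold change of -0.15 ± 0.18 (SE, 95% interval -0.55 to 0.26) was 0.05 without vehicle replicate 1 and -0.37 without the replicate 2 library of each group. MAP1B stood at 2.87, 2.70 and 1.91 CPM with MRT199665, against 2.43, 2.92 and 3.16 CPM with vehicle, which also overlapped. MAP1S averaged 6.13 ± 1.01 CPM in the treated and 5.22 ± 1.29 CPM in the vehicle libraries (SD, n = 3 each). MAP7, which recruits kinesin-1, had 8 counts over the treated libraries and 10 over the vehicle libraries and did not pass the filter.

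Proteins that sequester, sever or depolymerise microtubules had no called gene. STMN1 (stathmin), which binds free tubulin dimers, was the second most abundant gene of the set, at 680, 895 and 849 CPM with MRT199665, against 786, 626 and 701 CPM with vehicle (log2 fold change 0.20 ± 0.15, SE, edgeR adjusted p = 0.598). The depolymerising kinesin KIF2A averaged 31.0 ± 1.40 CPM in the treated and 29.4 ± 3.65 CPM in the vehicle libraries, and HDAC6, a tubulin deacetylase, 114 ± 11.4 CPM in the treated and 131 ± 22.1 CPM in the vehicle libraries (SD, n = 3 each). The groups of all 3 genes overlapped.

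At growing plus ends, MAPRE2 and MAPRE3 (EB2 and EB3), CLIP1, CLASP1 and CLASP2 had log2 fold changes between 0.01 and 0.22 with overlapping groups. CLASP2, which stabilises plus ends, was among the closest, at 27.7 ± 0.534 CPM in the treated and 27.5 ± 3.47 CPM in the vehicle libraries (SD, n = 3 each), with a 95% interval of the log2 fold change of -0.29 to 0.32. The narrow spread of MAPRE2, at 18.6 ± 0.660 CPM in the treated and 17.4 ± 1.05 CPM in the vehicle libraries (SD, n = 3 each), gave an interval of -0.18 to 0.39.

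Most motor and dynactin genes had estimates under 1.5-fold. DYNC1H1, the heavy chain of cytoplasmic dynein, stood at 563, 443 and 570 CPM with MRT199665, against 581, 633 and 532 CPM with vehicle (log2 fold change -0.15 ± 0.14, SE, and 0.02 without MRT199665 replicate 2 and vehicle replicate 2). KIF5B, the heavy chain of kinesin-1, averaged 111 ± 4.03 CPM in the treated and 117 ± 8.74 CPM in the vehicle libraries, and KIF1B, a kinesin-3, 8.26 ± 1.07 CPM in the treated and 9.18 ± 1.07 CPM in the vehicle libraries (SD, n = 3 each). The interval of KIF5B, -0.31 to 0.18, was among the narrower ones. Of dynactin, DCTN1 (p150Glued) stood at 58.8, 49.2 and 52.0 CPM with MRT199665, against 48.2, 47.9 and 42.1 CPM with vehicle. Its groups did not overlap, though MRT199665 replicate 2 lay close to the highest vehicle library, and it did not pass the test (log2 fold change 0.21 ± 0.12, SE, edgeR adjusted p = 0.470). DCTN2, DCTN3 and PAFAH1B1 (LIS1, a dynein regulator) had log2 fold changes between -0.09 and -0.01.

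TUBGCP2, a subunit of the gamma-tubulin complex, was the third gene with every treated library above every vehicle library, at 146, 134 and 137 CPM with MRT199665, against 113, 132 and 111 CPM with vehicle. Its log2 fold change of 0.23 ± 0.11 (SE) went the opposite way to that of TUBG1 and did not pass the test (edgeR adjusted p = 0.402). TBCA, which takes part in beta-tubulin folding, stood at 375, 309 and 339 CPM with MRT199665, against 363, 448 and 395 CPM with vehicle, and its groups overlapped (log2 fold change -0.24 ± 0.13, SE).

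The largest positive estimates belonged to genes that were high in a single treated library. In MRT199665 replicate 2, 5 of the 36 genes (13.9%, against 11.7% of all tested genes) stood over 1.5 times higher than the mean of MRT199665 replicates 1 and 3. TBCD, a folding cofactor, stood at 1.59, 10.8 and 2.13 CPM with MRT199665, against 2.01, 1.03 and 1.43 CPM with vehicle, from counts of 21, 64 and 30 with MRT199665 and 24, 12 and 14 with vehicle. MAPRE1 (EB1), the core tracker of growing plus ends, stood at 9.29, 33.5 and 11.6 CPM with MRT199665, against 14.9, 6.35 and 9.16 CPM with vehicle. DYNLL1, a dynein light chain that also binds many other proteins, stood at 58.7, 141 and 79.0 CPM with MRT199665, against 74.8, 33.2 and 57.5 CPM with vehicle. In all 3 genes the high treated value was that of replicate 2, and the groups overlapped. KATNA1 (katanin), at 9.14, 19.1 and 9.07 CPM with MRT199665, against 12.4, 11.2 and 11.6 CPM with vehicle, and TBCB, another folding cofactor, completed the 5. Among the vehicle libraries all 5 were highest in replicate 1.

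The log2 fold changes were 1.53 ± 0.72 for TBCD, 0.77 ± 0.49 for MAPRE1 and 0.74 ± 0.36 for DYNLL1 (SE), and none passed the test (edgeR adjusted p = 0.372, 0.520 and 0.382 in that order). Without MRT199665 replicate 2 they were 0.31, 0.036 and 0.32, with -0.37 for KATNA1 and -0.13 for TBCB, and without MRT199665 replicate 2 and vehicle replicate 2 0.10, -0.22 and 0.05. Without a low-count filter edgeR called all 3 higher (adjusted p = 0.000767 for TBCD, 0.0115 for MAPRE1 and 0.000956 for DYNLL1), and no other alternative called any of them. Over the alternatives their highest adjusted p was 0.926 for TBCD, 0.981 for MAPRE1 and 0.920 for DYNLL1. MRT199665 replicate 2 was also the library with the fewest counts.

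**Figure D4:**
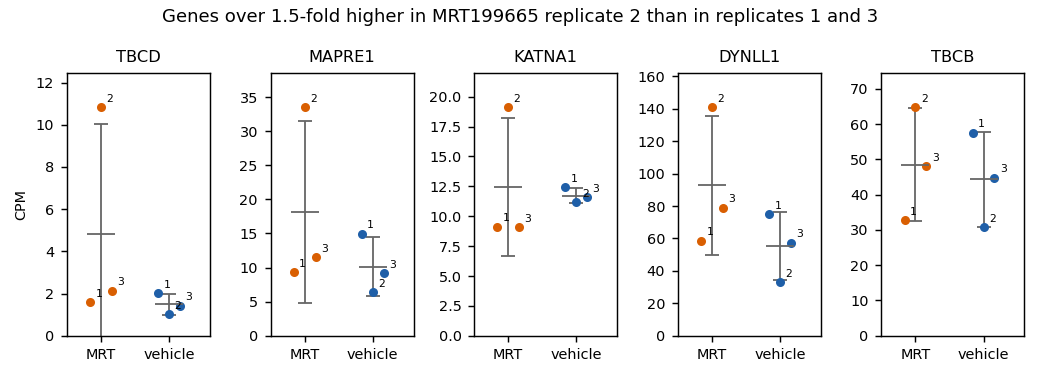
CPM by library of the 5 genes that stood over 1.5 times higher in MRT199665 replicate 2 than in the mean of replicates 1 and 3, with MRT199665 left and vehicle right in each panel, replicate numbers beside the points and bars for mean and SD. For TBCD the replicate 2 point of MRT199665 lies at 10.8 CPM and replicates 1 and 3 lie at 1.59 and 2.13 CPM, and replicate 1 is the highest vehicle point in every panel.

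Further genes of the pathway were read from the same fit. Their lists were written from general knowledge, but with earlier results of these data known. Of 146 tested genes in these lists 1 was called (0.685%), lower, against 1.25% of all genes called in either direction and 0.398% called lower. MZT1, a small subunit of the gamma-tubulin complex, fell to 28.8, 27.7 and 27.7 CPM with MRT199665, against 43.7, 63.6 and 56.3 CPM with vehicle. It was 1.94-fold lower (log2 fold change -0.96 ± 0.15, SE, edgeR adjusted p = 0.0238). The treated libraries lay close together and below every vehicle library. DESeq2 (adjusted p = 3.36e-05) and limma-voom (adjusted p = 0.0286) also called MZT1 lower. So did edgeR under each other scaling and filter, and without vehicle replicate 1 (edgeR adjusted p = 0.00599). Its edgeR adjusted p was 0.0899, 0.0648 and 0.150 on leaving out MRT199665 replicates 1, 2 and 3 in turn, and 0.0601 and 0.140 on leaving out vehicle replicates 2 and 3, so that the call was lost each time. It was also lost on leaving out the replicate 2 library of each group (0.0567). The log2 fold change then lay between -0.98 and -0.82. Of the 12 nucleation genes, all tested, MZT1 was the called one, and the list's median log2 fold change was -0.07.

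In the other 7 lists edgeR called no gene. Of 12 further tubulins 3 were tested, and TUBE1 (epsilon-tubulin, of centrioles) had the lowest p, with a log2 fold change of -0.56 ± 0.21 (SE), ahead of TUBG2 at -0.08 ± 0.27 (SE). Of 38 folding and modification genes 35 were tested, with a median of -0.13 and 4 at an unadjusted p under 0.05 (11.4%, against 14.7% of all genes). Lowest in p were CCT8, a subunit of the chaperonin that folds tubulin, at 192 ± 6.13 CPM in the treated and 270 ± 16.8 CPM in the vehicle libraries, and the prefoldin gene PFDN2 at 34.8 ± 4.47 CPM in the treated and 52.8 ± 6.69 CPM in the vehicle libraries (SD, n = 3 each). Both groups of libraries were apart in each gene, edgeR did not call them (adjusted p = 0.0755 and 0.105 in that order), while both were called lower by DESeq2, and by edgeR when no filter on low counts was used.

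Of 41 other associated proteins 26 were tested, with a median of -0.09 and 5 at an unadjusted p under 0.05 (19.2%, against 14.7% of all genes). Lowest in p were CAMSAP2, a minus-end binder, at -0.52 ± 0.15, and EML2 at -0.43 ± 0.13 (log2 fold change, SE). Of 27 other dynein and dynactin genes 24 were tested, with a median of -0.05 and 2 at an unadjusted p under 0.05 (8.33%, against 14.7% of all genes). DYNLL2, the close relative of DYNLL1, stood at 99.4, 114 and 105 CPM with MRT199665, against 85.7, 79.2 and 81.7 CPM with vehicle, without overlap (log2 fold change 0.37 ± 0.11, SE, edgeR adjusted p = 0.160), and NUDC, a dynein-associated chaperone, had -0.33 ± 0.13 (SE). Of 22 other interphase kinesins 17 were tested, with a median of -0.13 and 3 at an unadjusted p under 0.05 (17.6%, against 14.7% of all genes). KIF21B stood at 77.5, 55.8 and 82.8 CPM with MRT199665, against 104, 140 and 142 CPM with vehicle (log2 fold change -0.83 ± 0.18, SE, edgeR adjusted p = 0.0757). DESeq2 called KIF21B lower, as did edgeR without a low-count filter and without vehicle replicate 1. Its neighbour by p was KIF17 at -0.42 ± 0.13 (SE).

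Among 13 mitotic kinesins, all tested, the median log2 fold change was -0.26, with 11 negative, while the 36 tested genes of the set had a median of 0.0035. Of the 13, 4 had an unadjusted p under 0.05 (30.8%, against 14.7% of all genes). KIF14, which acts in cytokinesis, stood at 36.3, 24.3 and 33.9 CPM with MRT199665, against 44.5, 48.0 and 45.5 CPM with vehicle, and CENPE, the kinesin of kinetochores, averaged 34.1 ± 5.74 CPM in the treated and 45.7 ± 3.93 CPM in the vehicle libraries (SD, n = 3 each). In both genes the groups did not overlap, and neither was called, although KIF14 was without a low-count filter. The difference between the lists was not tested.

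**Figure D5:**
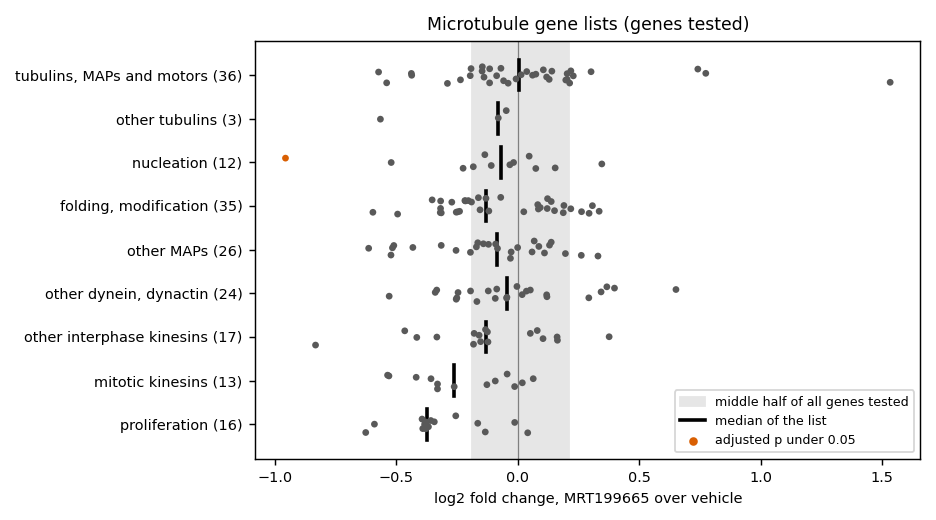
Log2 fold changes of MRT199665 over vehicle for each tested gene (point) in the set described here and in 8 further lists, with list medians as black bars and the number tested in brackets. The grey band is the range from the lower to the upper quartile of all 13053 tested genes, -0.19 to 0.21, and the called gene, MZT1, is coloured.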

How the data were processed

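Gene expression was measured in 6 libraries of OCI-AML2, with groups and replicate numbers from the labels. The submitters' processing notes name hg19 as build and DESeq2, HTSeq 0.6.1 and STAR 2.4 as tools. The annotation, strand setting and read filters were not given in the sources used here. Values in the authors' deposited table are counts, whole and not normalized as far as the values show, with 1 row per gene symbol.

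All 13053 of 55765 genes that passed filterByExpr (minimum count 10, minimum total 15) entered a fit in edgeR 4.0.16 (R 4.3.3, quasi-likelihood, TMM, group as the only term, two-sided). A gene was called where its p, adjusted by Benjamini-Hochberg over all of them, was under 0.05. SE is the log2 fold change divided by the square root of F, and 95% intervals use the fitted degrees of freedom. CPM uses totals scaled by TMM. The 40 genes and the further lists were chosen with earlier results of these data known. Therefore no p was taken over a list, and the permutation p of the summed tubulin CPM is not printed. Values per library are given for any gene called, the 12 lowest p, the 6 highest CPM, and MAP4, MAPT and MAP1B. Of each further list, the called genes, or else the 2 lowest p, are named.

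Promoters (GRCh38.p14) came from RefSeq and 3′ end sequences from GENCODE 29. Depth was 5871097 to 14308650 counts. Alternatives were other scalings and filters, DESeq2 1.42.0, limma-voom (limma 3.58.1), the replicate number as a block and leaving out each library, all tested by the same thresholds. Leaving out MRT199665 replicate 2 and vehicle replicate 2 together, and the counts of the further lists under each alternative, were added after seeing the data. The fit was tested on simulated data.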

Additional observations from a re-analysis of the deposited data

How the results depend on the processing

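No microtubule gene of the set was called by edgeR under any alternative except without a low-count filter, where 3 were called higher and 1, TUBB, lower. Without that filter edgeR called 373 higher and 271 lower of all genes and, in the further lists, 1 higher and 8 lower. With DESeq2 there were 197 genes called higher and 150 lower, of which 6 lower were in the further lists. Leaving out each library in turn gave 29 to 78 higher and 20 to 55 lower genes, and 0 to 2 lower in the further lists. The median log2 fold change of the set then lay between -0.035 and 0.079, its highest value being without vehicle replicate 1, and the genes without overlap numbered 8 to 18, a share of 22.2% to 50%, against 27.7% to 36.8% of all genes. Fewer libraries overlap less often by construction. Without the replicate 2 library of each group 16 genes had no overlap (44.4%, against 47.1% of all genes) and 0 were called lower in the further lists. The tubulin sum then differed by -1037 CPM, against -1623 CPM with all libraries. This difference is smaller by construction, since these libraries held the lowest treated and the highest vehicle sum.

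Nothing in the labels says that replicate numbers pair the libraries. Deviations from the group means correlated at -0.547, -0.467 and 0.018 for numbers 1, 2 and 3. Across numbers they correlated at 0.530 for MRT199665 replicate 1 with vehicle replicate 2, and at 0.482 for MRT199665 replicate 2 with vehicle replicate 1. Deviations within a group of 3 are tied to each other, so these values cannot settle whether libraries were paired. With the replicate number as a block, 7 higher and 5 lower genes were called, 0 in the further lists (MZT1 adjusted p = 0.210) and none of the set. Among genes given by library, some log2 fold changes turned sign, and the cause was not tested. With each library left out in turn, that of TUBB6 lay between -0.15 and 0.085 (highest without MRT199665 replicate 2) and that of MAP4 between -0.30 and 0.051 (highest without vehicle replicate 1). Without both replicate 2 libraries it was 0.049 for TUBB6, -0.22 for MAPRE1 and 0.023 for DYNC1H1. In the shallowest library, of 5871097 counts, a count of 0 allows a level of up to 0.507 CPM.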
